A study of Mus musculus with 4 samples.

Results

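The 10 genes described here are the mouse chemokines that draw neutrophils (Cxcl1, Cxcl2, Cxcl3, Cxcl5 and Cxcl15), their receptors Cxcr1 and Cxcr2, the calprotectin subunits S100a8 and S100a9, and Csf3, which encodes granulocyte colony-stimulating factor. They were chosen by name, and every array probe whose transcript accession belongs to a gene of the list was taken. Each gene had 1 such probe, so the set is 10 of the 23784 genes named on the arrays, and 9 of the 10 were bright enough to be tested. The tumours came from CD109-/- KP mice and from CD109+/+ KP mice, all on the C57BL/6J strain. KP mice are a model in which lung adenocarcinomas arise after Cre is delivered to the lung. All of the mice received adenoviral Cre into the airways 88 to 92 days before RNA was taken from the lung tumours. The labels do not name the promoter that drove Cre and do not state how the Cd109 deletion was made. There were 2 arrays of each genotype. CD109-/- replicate 1 was male, and CD109-/- replicate 2 and both CD109+/+ replicates were female. The study set out to compare gene expression in tumours that lack CD109, a cell-surface protein tied to TGF-beta signalling, with tumours that have it. The labels do not say that replicates were separate animals or whether tumours were pooled, so the p-values below measure the spread between these samples, which may be technical.

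Neutrophils reach inflamed or tumour-bearing lung by following CXC chemokines, of which those carrying the ELR residues before the first cysteines bind Cxcr2 and, for some, Cxcr1. Epithelial cells, macrophages and fibroblasts make these ligands when NF-kB is switched on by cytokines or by Toll-like receptors, while granulocyte colony-stimulating factor releases neutrophils from the bone marrow. S100a8 and S100a9 pair to form calprotectin, a calcium- and zinc-binding protein that fills the neutrophil cytosol and, once released, acts on receptors such as Tlr4.

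The sequences before the start sites are shown because they set apart Cxcl1, Cxcl2 and Cxcl3, which share a kappaB word, from Cxcl15 and from the calprotectin pair. RefSeq start sites on GRCm38.p6 were available for 8 of the 10 genes, all but Cxcl5 and Csf3. Both strands of the 250 bases before each start were searched for the kappaB consensus by name, for AP-1 (TGANTCA), for C/EBP (TTNNGNAA) and for TATAAA. The last 140 bases before the start are printed 5′ to 3′ along the gene's strand, with capitals marking kappaB, C/EBP or TATAAA matches.
Cxcl1, chr5:90891105-90891244, plus strand: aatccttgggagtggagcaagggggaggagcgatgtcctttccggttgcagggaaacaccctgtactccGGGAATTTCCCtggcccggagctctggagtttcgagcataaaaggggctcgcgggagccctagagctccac
Cxcl2, chr5:90903759-90903898, plus strand: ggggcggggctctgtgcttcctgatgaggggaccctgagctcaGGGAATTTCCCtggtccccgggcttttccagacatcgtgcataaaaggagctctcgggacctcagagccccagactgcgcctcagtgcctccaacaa
Cxcl3, chr5:90785961-90786100, plus strand: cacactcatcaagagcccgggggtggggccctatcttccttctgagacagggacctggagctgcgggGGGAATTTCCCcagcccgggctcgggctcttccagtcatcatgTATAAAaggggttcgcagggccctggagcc
Cxcl15, chr5:90794394-90794533, plus strand: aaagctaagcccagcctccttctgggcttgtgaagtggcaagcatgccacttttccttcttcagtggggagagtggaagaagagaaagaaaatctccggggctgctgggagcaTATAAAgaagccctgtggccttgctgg
S100a8, chr3:90668931-90669070, plus strand: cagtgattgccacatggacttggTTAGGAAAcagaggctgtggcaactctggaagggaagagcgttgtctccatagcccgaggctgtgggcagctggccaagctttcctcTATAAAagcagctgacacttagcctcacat
S100a9, chr3:90695722-90695861, minus strand: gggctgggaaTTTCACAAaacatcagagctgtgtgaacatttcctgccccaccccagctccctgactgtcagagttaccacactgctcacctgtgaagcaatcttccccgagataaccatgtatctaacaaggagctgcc

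The word GGGAATTTCC began at position -71 of Cxcl1, -97 of Cxcl2 and -73 of Cxcl3, counted back from the start site. In each of the 3 it overlapped a match of the same consensus on the other strand, so both strands together span the capitals. The kappaB consensus was present in 3.90% of all 32851 promoters of the same length, and the exact word in 28 promoters, a share of 0.0852%. The windows of Cxcl15, Cxcr1, Cxcr2, S100a8 and S100a9 held no match to the consensus. C/EBP matches, which 36.9% of all promoters had, began at -117 in S100a8 and covered -130 to -123 in S100a9, in the second case on the other strand. More distant C/EBP matches at -236 in S100a9 and in Cxcl2 lie outside the printed stretches. TATAAA, found in 12.4% of promoters, began at -30 in Cxcl3, -27 in Cxcl15 and -30 in S100a8. AP-1 was matched in none of the 8 promoters and in 6.75% of all promoters. In RefSeq's gene order on chromosome 5, Cxcl5 is followed by the platelet chemokine genes Ppbp and Pf4 and then by Cxcl3, Cxcl15, Cxcl1 and Cxcl2. S100a8 and S100a9 are neighbours on chromosome 3, Cxcr2 and Cxcr1 are neighbours on chromosome 1, and Csf3 lies on chromosome 11.

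On each array 64.3% to 67.0% of spots were well above background and 0 were saturated, and the arrays correlated with each other at 0.968 to 0.982 over probes. Having 2 arrays of each genotype limits the precision. The probe for Cd109, the deleted gene, read -7.98 and -7.87 in CD109-/- tumours, both too dim to be well above background, against -3.70 and -4.66 in CD109+/+ tumours. All values of this kind are log2 signals relative to the array's 75th percentile, which stands at 0. Cd109 was at least 2.92-fold lower, with a limma adjusted p of 0.299 in the fit by gene. All 9 listed markers of alveolar type 2 cells, a lung epithelial cell type, were well above background on all 4 arrays.

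Cxcl1, Cxcr2 and S100a9 had the lowest unadjusted p of the set. Cxcr2 was 3.52-fold higher in CD109-/- tumours, Cxcl1 2.64-fold and S100a9 2.42-fold. With 1 array left out, the log2 difference ran from 0.88 to 2.76 for Cxcr2, 0.87 to 1.93 for Cxcl1 and 0.60 to 1.96 for S100a9. None of the 9 passed an adjusted p of 0.05 in limma, where adjusted p ran from 0.639 to 0.929, and 0% of the 35769 probes tested did, while 2437 probes had an unadjusted p under 0.05. At an unadjusted p under 0.05, Cxcl1, Cxcr2 and S100a9 were higher and no gene of the set was lower, with 3.87% of all probes called higher by that rule. The mean was higher in CD109-/- tumours for 9 of 9 genes, against 44.5% of all probes and 50.3% of all 16443 genes tested. The log2 difference reached 1 in 6 of the 9, against 3.06% of all probes and 4.02% of all genes. With normexp background correction it reached 1 in 5 of the 9, against 289 of 35769 probes, and Cxcl2 fell to 0.29. Both CD109-/- arrays stood above both CD109+/+ arrays for 5 of the 9, against 16.5% of all probes and 20.3% of all genes. The genotypes overlapped for the other 4. The median difference over the 9 genes was 1.08, while that over all probes was -0.05 and that over all genes 0.0029. In bulk tumour RNA, more of the cells that make these RNAs and more RNA of these genes per cell cannot be told apart.

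**Figure D1:**
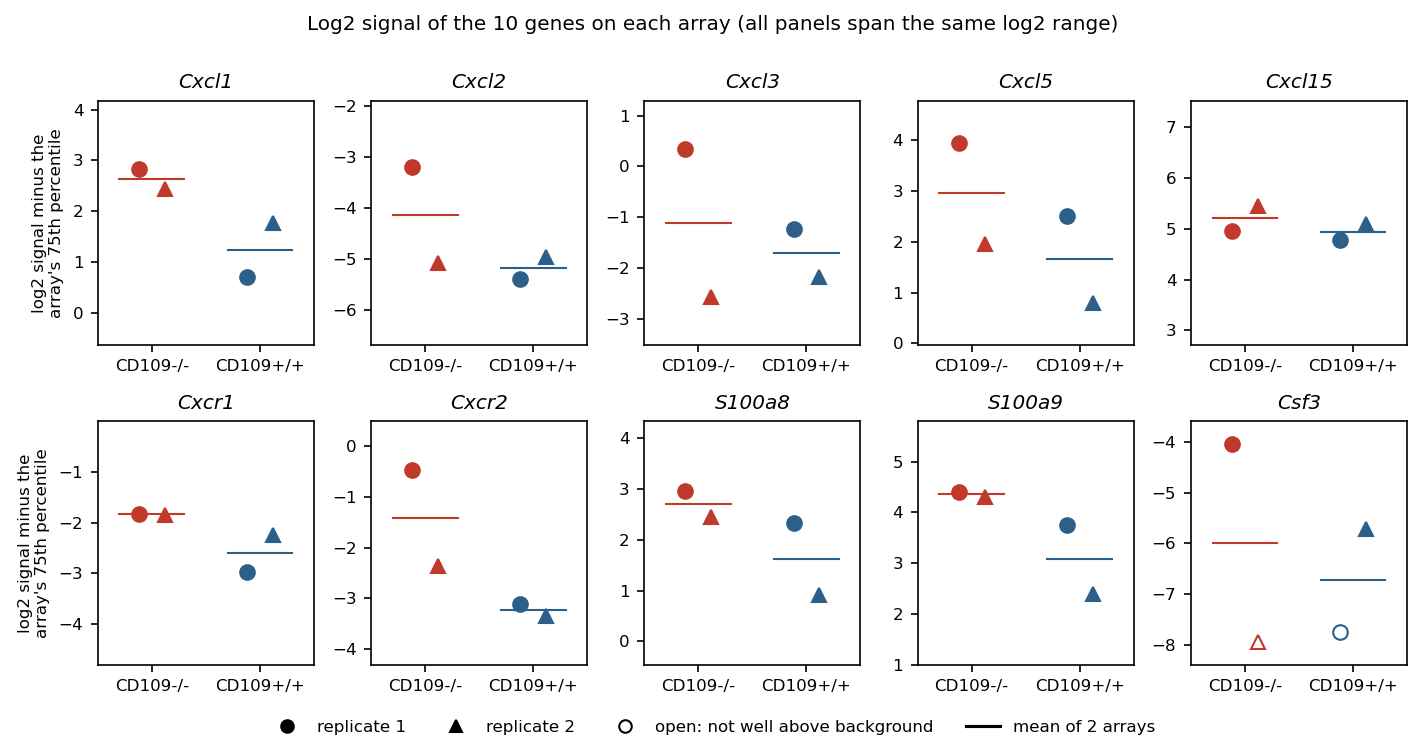
Log2 signal minus the array's 75th percentile (vertical axis) for each of the 10 genes, with CD109-/- arrays at the left of each panel and CD109+/+ arrays at the right, circles for replicate 1, triangles for replicate 2 and a line at each mean. The genotypes do not overlap for Cxcl1, Cxcr1, Cxcr2, S100a8 and S100a9, and open symbols mark the 2 Csf3 values not well above background.

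Among the ligands, Cxcl1, the chief inducible neutrophil attractant of the mouse, read 2.84 and 2.44 in CD109-/- tumours, against 0.71 and 1.77 in CD109+/+ tumours. Both CD109-/- arrays lay above both CD109+/+ arrays, and the lowest value was that of CD109+/+ replicate 1. Its log2 difference was 1.40 ± 0.42 (SE), with a 95% interval of 0.31 to 2.49, an unadjusted p of 0.0211 and an adjusted p of 0.639 in limma, and it was 0.87 without CD109+/+ replicate 1.

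Cxcl5, which airway and alveolar epithelium releases in mouse lung, read 3.95 and 1.96 in CD109-/- tumours, against 2.52 and 0.80 in CD109+/+ tumours. The genotypes overlapped, since CD109-/- replicate 2 lay below CD109+/+ replicate 1, and the gap between replicates (1.99 in CD109-/- and 1.72 in CD109+/+) was wider than the difference between genotypes. That difference was 1.30 ± 0.86 (SE), 95% interval -0.91 to 3.50 (limma adjusted p = 0.813). It was 0.30 without CD109-/- replicate 1, 0.44 without CD109+/+ replicate 2, 2.16 without CD109+/+ replicate 1 and 2.29 without CD109-/- replicate 2.

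Cxcl2, made early by macrophages and neutrophils, read -3.19 and -5.08 in CD109-/- tumours, against -5.40 and -4.97 in CD109+/+ tumours. CD109-/- replicate 1 alone stood apart, and CD109-/- replicate 2 fell between the CD109+/+ arrays. Cxcl2 was close to background on CD109-/- replicate 2 and on both CD109+/+ arrays. The dimmest signals well above background on these arrays were -5.65, -5.62 and -5.88. The difference was 1.05 ± 0.65 (SE), with an interval of -0.63 to 2.72 (limma adjusted p = 0.801), and it was 0.29 with normexp background correction in place of the scanner software's own. Leaving out CD109-/- replicate 1 made it 0.10, and leaving out CD109-/- replicate 2 made it 1.99.

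Cxcl3, a close relative of Cxcl2, read 0.34 and -2.56 in CD109-/- tumours, against -1.24 and -2.19 in CD109+/+ tumours. The highest and the lowest array were both CD109-/-, and their gap of 2.90 was the widest within a genotype among the tested genes of the set. The difference of 0.60 ± 0.99 (SE), interval -1.94 to 3.14 (limma adjusted p = 0.929), turned to -0.85 without CD109-/- replicate 1. It was 0.13 without CD109+/+ replicate 2, 1.07 without CD109+/+ replicate 1 and 2.05 without CD109-/- replicate 2.

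Cxcl15, known in mouse as lungkine and made constitutively by lung epithelium, had the smallest difference of the tested genes of the set. It read 4.96 and 5.46 in CD109-/- tumours, against 4.78 and 5.10 in CD109+/+ tumours. Replicate 2 was above replicate 1 in each genotype, and CD109+/+ replicate 2 exceeded CD109-/- replicate 1, so the genotypes overlapped. The difference was 0.27 ± 0.29 (SE), with an interval of -0.48 to 1.01 (limma adjusted p = 0.887). Leaving out CD109-/- replicate 2 gave 0.017, and leaving out CD109-/- replicate 1 gave 0.51. The other 4 ligand genes differed by 0.60 to 1.40, and 2 of these had intervals reaching past 3.

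Of the receptors, Cxcr2, which binds the ELR chemokines on neutrophils, read -0.47 and -2.36 in CD109-/- tumours, against -3.11 and -3.35 in CD109+/+ tumours. The genotypes did not overlap, although the CD109-/- arrays were 1.88 apart and the CD109+/+ arrays 0.24 apart. The difference was 1.82 ± 0.64 (SE), with an interval of 0.18 to 3.46, an unadjusted p of 0.0360 and an adjusted p of 0.693 in limma. Leaving out CD109-/- replicate 1 gave 0.88, and leaving out CD109-/- replicate 2 gave 2.76. Cxcr1, the second receptor of the pair, read -1.83 and -1.84 in CD109-/- tumours, against -2.97 and -2.24 in CD109+/+ tumours. Here the CD109-/- arrays were alike and both were above the CD109+/+ arrays. Its difference was 0.77 ± 0.32 (SE), with an interval of -0.059 to 1.60 (limma adjusted p = 0.746), 0.44 with normexp background correction and 0.40 without CD109+/+ replicate 1.

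Both calprotectin subunits were higher on both CD109-/- arrays. S100a9 read 4.40 and 4.31 in CD109-/- tumours, against 3.76 and 2.39 in CD109+/+ tumours, and S100a8 read 2.96 and 2.44 in CD109-/- tumours, against 2.33 and 0.92 in CD109+/+ tumours. CD109+/+ replicate 2 was the lowest array for both genes, and CD109+/+ replicate 1 came within 0.12 of CD109-/- replicate 2 for S100a8 and within 0.55 for S100a9. The difference was 1.28 ± 0.49 (SE) for S100a9, with an interval of 0.030 to 2.53, an unadjusted p of 0.0464 and an adjusted p of 0.725 in limma. For S100a8 it was 1.08 ± 0.52 (SE), with an interval of -0.27 to 2.42 (limma adjusted p = 0.764). Without CD109+/+ replicate 2 these differences were 0.60 for S100a9 and 0.37 for S100a8, and without CD109+/+ replicate 1 they were 1.96 and 1.78.

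Csf3, the cytokine that mobilises neutrophils, was not tested. It read -4.04 and -7.95 in CD109-/- tumours, against -7.74 and -5.73 in CD109+/+ tumours, and only CD109-/- replicate 1 and CD109+/+ replicate 2 were well above background. The highest and the lowest value both came from CD109-/- arrays. Its receptor Csf3r read 5.95 and 6.15 in CD109-/- tumours, against 6.16 and 6.27 in CD109+/+ tumours. Csf3r did not overlap between genotypes and had the lower values in CD109-/- tumours, by less than its error (difference -0.17 ± 0.22 SE, limma adjusted p = 0.900).

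**Figure D2:**
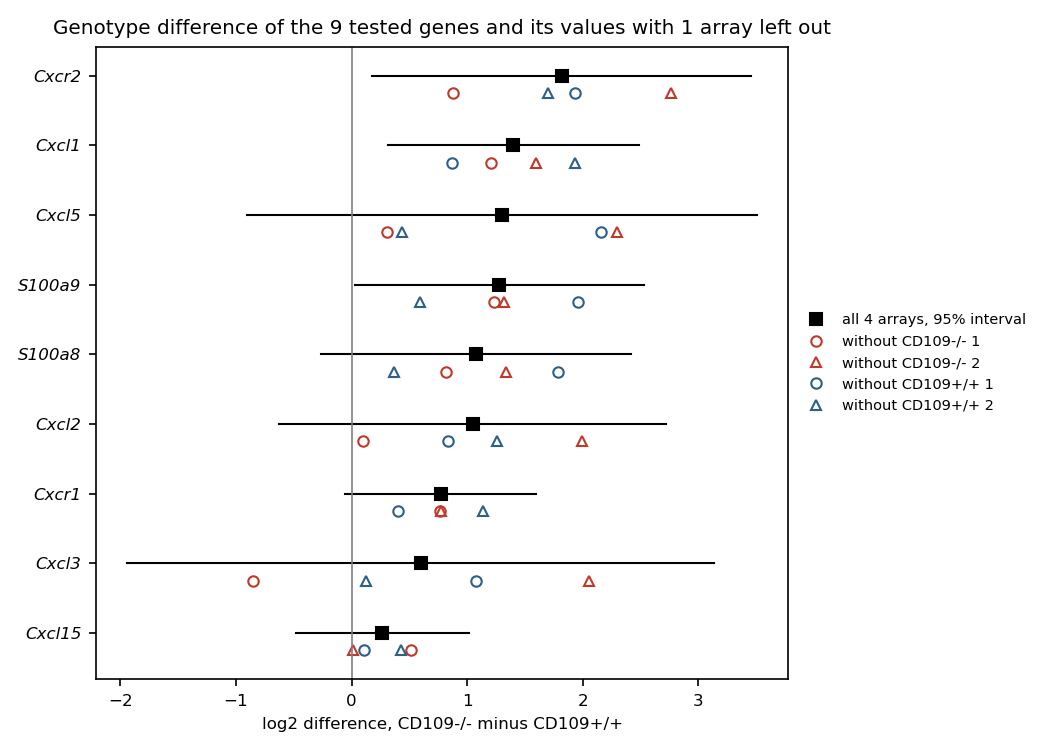
Log2 difference, CD109-/- minus CD109+/+, for the 9 tested genes (horizontal axis), with a square and 95% limma interval for all 4 arrays and open symbols for the values with 1 array left out. The intervals of Cxcr2, Cxcl1 and S100a9 lie above 0, and Cxcl3 without CD109-/- replicate 1 is the point below 0.

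The male CD109-/- replicate 1 was the highest array for 8 of the 9 tested genes, against 24.6% of all probes and 28% of all genes. The exception was Cxcl15. CD109-/- replicate 1 exceeded CD109-/- replicate 2 by at least 1 for Cxcl2, Cxcl3, Cxcl5 and Cxcr2, a gap that 4.86% of all probes and 5.68% of all genes showed. It lay above both CD109+/+ arrays for 8 of the 9 genes (32.4% of all probes, 37.9% of all genes). The female CD109-/- replicate 2 did so for 6 of the 9 (33.8% of all probes, 37.8% of all genes). Those 6 were Cxcl1, Cxcl15, Cxcr1, Cxcr2, S100a8 and S100a9. With each gene centred on its own mean, the median over the 9 genes was 0.90 and 0.28 on the CD109-/- arrays, against -0.29 and -0.77 on the CD109+/+ arrays.

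Without CD109-/- replicate 1, which leaves females in both genotypes and a lone CD109-/- array assumed to vary like the CD109+/+ pair, 8 of the 9 differences stayed above 0 and Cxcl3 went below it. The median was then 0.76, and the difference reached 1 in 2 genes, Cxcl1 at 1.20 and S100a9 at 1.23, against 4.09% of all probes in that fit. At an unadjusted p under 0.05, 1 gene was higher, against 4.65% of all probes. Sex and replicate cannot be told apart here, since the only male was CD109-/- replicate 1.

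Other neutrophil markers were split in direction between the genotypes. Of 29 listed, 25 were tested, 15 with a higher and 10 with a lower mean in CD109-/- tumours, against 50.3% of all 16443 genes higher. No marker passed an adjusted p of 0.05 in limma, as was the case for 0% of all genes, and 3 were higher and 0 lower at an unadjusted p under 0.05 (5% and 2.41% of all genes). Genotypes did not overlap in 6 that were higher (20.3% of all genes) and in 4 that were lower (18.3% of all genes). The median difference was 0.49, against 0.0029 over all genes, and 0.025 without CD109-/- replicate 1.

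Of the 3 markers that were higher at an unadjusted p under 0.05, Fpr1 and Mmp8 were measured on all 4 arrays, while Mrgpra2b entered the test only through its CD109-/- arrays. Among the 23 markers measured on all 4 arrays, 14 had higher and 9 lower means. Fpr1, the receptor for bacterial formyl peptides, read 0.46 and 0.20 in CD109-/- tumours, against -0.94 and -0.90 in CD109+/+ tumours, a difference of 1.25 ± 0.22 (SE, limma adjusted p = 0.504). Mmp8, the neutrophil collagenase, read -1.38 and -1.72 in CD109-/- tumours, against -3.20 and -2.67 in CD109+/+ tumours, a difference of 1.39 ± 0.29 (SE, limma adjusted p = 0.507). The genotypes of both were well apart and the replicates close together. Mrgpra2b was at least 1.59-fold higher, a bound because both CD109+/+ arrays were too dim.

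Ly6g, which encodes the antigen used to sort mouse neutrophils, was the higher on replicate 1 in each genotype, at -0.07 and -1.87 in CD109-/- tumours, against -0.75 and -2.14 in CD109+/+ tumours. Acod1, the enzyme that makes itaconate, differed by 1.82 ± 1.15 (SE, limma adjusted p = 0.771), the lectin receptors Clec4d by 1.65 ± 0.96 and Clec4e by 1.54 ± 1.32 (limma adjusted p = 0.753 and 0.833), and the gelatinase gene Mmp9 by 1.33 ± 1.54 (limma adjusted p = 0.887). A second Mmp9 probe differed by 2.96. CD109-/- replicate 1 was the highest array for each of these 4, and all 4 overlapped. It exceeded CD109-/- replicate 2 by at least 1 in 10 of the 25 markers, against 5.68% of all genes.

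Granule genes went both ways. Mmp8, Mmp9 and Lcn2 had higher means in CD109-/- tumours, by 1.39, 1.33 and 0.63. Ctsg, Camp, Mpo, Elane and Ltf had lower or nearly equal means there. Ctsg (cathepsin G) read -5.45 and -2.62 in CD109+/+ tumours. It was too dim on both CD109-/- arrays and entered the test only through its CD109+/+ arrays. Ctsg was at least 3.24-fold lower in CD109-/- tumours (limma adjusted p = 0.721). That bound rests mostly on CD109+/+ replicate 2, since CD109+/+ replicate 1 was close to background. Camp, a granule antimicrobial peptide, differed by -0.74 ± 0.36 (SE, limma adjusted p = 0.721). Outside the granule genes, Padi4, which citrullinates histones, differed by -1.50 ± 0.65 (SE, limma adjusted p = 0.705). Mpo differed by -0.19 ± 0.32 and Elane by -0.085 ± 0.33 (SE, limma adjusted p = 0.919 and 0.973). Ltf, for lactoferrin, read 5.52 and -1.30 in CD109-/- tumours, against 1.66 and 2.75 in CD109+/+ tumours. Lcn2, Retnlg, Cd177, Fpr2, Wfdc21 and Stfa2l1 had means higher by 0.49 to 0.99 or, for Wfdc21, by 1.16. Hdc, G0s2, Trem1 and Stfa2 differed by -0.22 to 0.0080, and a second Trem1 probe by 1.17. Prtn3, Ngp, Itgb2l and Stfa3 were too dim to test. Summed over the list, the scaled signal was 260 and 238 on the CD109-/- arrays, against 162 and 230 on the CD109+/+ arrays. Lcn2 and Csf3r made up most of that sum on every array, and the other 23 markers summed to 88.5 and 42.7 on the CD109-/- arrays, against 31.8 and 56.2 on the CD109+/+ arrays. Ltf and Hdc in turn made up most of this remainder on every array, so neither sum describes the list as a whole. Ltf gave 45.8 and 0.41 on the CD109-/- arrays, against 3.17 and 6.72 on the CD109+/+ arrays. Hdc gave 14.6 and 28.3, against 13.6 and 38.6. The part of neutrophil number in the chemokine and calprotectin differences was not tested.

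**Figure D3:**
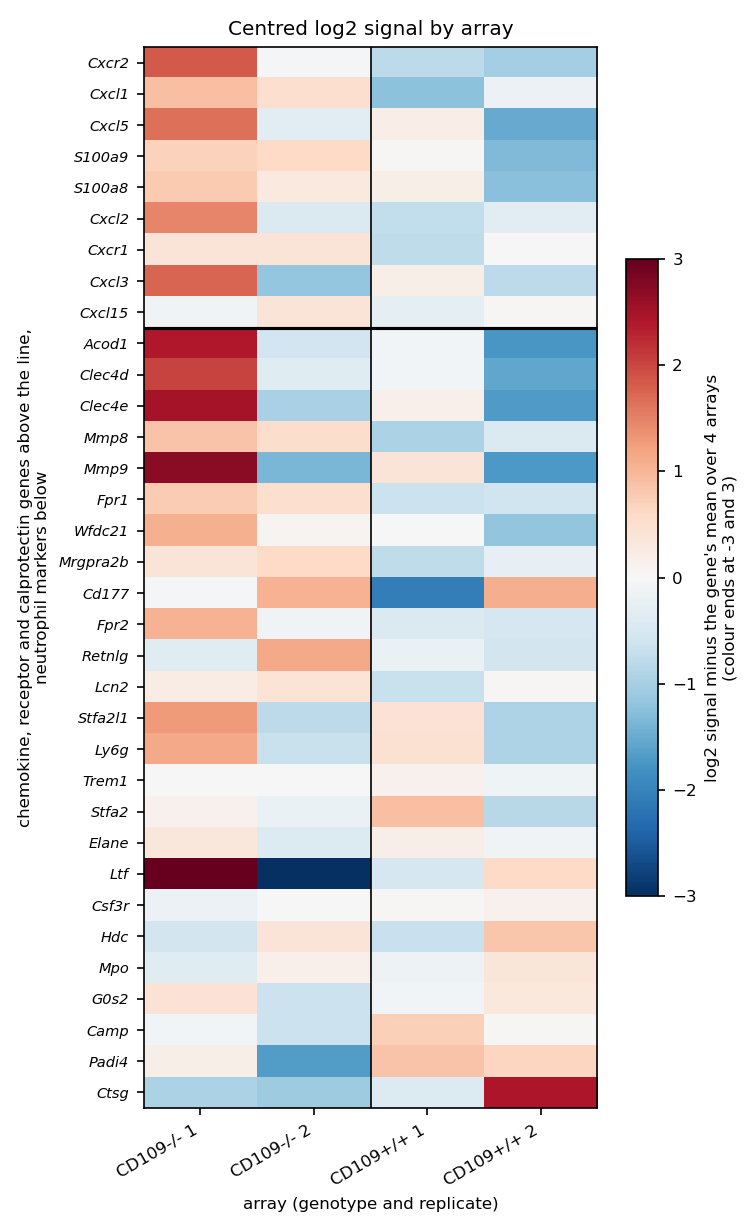
Log2 signal of each gene minus its mean over the 4 arrays (colour), with the 9 tested genes of the set above the black line, 25 neutrophil markers below it, and CD109-/- arrays left of CD109+/+ arrays. CD109-/- replicate 1 is highest for 8 of the 9 genes above the line, while the markers below it include 10 with a lower CD109-/- mean.

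Around the ligands, the other CXC chemokines and atypical chemokine receptors had higher means in CD109-/- tumours for 10 of 12 tested, against 50.3% of all genes. The median was 0.90, but 0.38 without CD109-/- replicate 1 and 0.60 with normexp background correction. Cxcl13, which draws B cells, had a signal in CD109-/- tumours at least 7.48-fold higher, and it entered the test only through those arrays, so that 9 of the 11 genes measured on all 4 arrays had higher means. Cxcl14 differed by 1.15 ± 0.32 and Cxcl12, the ligand that holds neutrophils in marrow through Cxcr4, by 0.98 ± 0.28 (SE, limma adjusted p = 0.565 and 0.571). A second Cxcl14 probe differed by 0.067 and a second Cxcl12 probe by 1.98. The neighbours of the ligands on chromosome 5, named for their place, were split. Ppbp read -1.65 and -3.79 in CD109-/- tumours, against -3.02 and -4.78 in CD109+/+ tumours, and Pf4 had a difference of -0.71 ± 1.04 (SE, limma adjusted p = 0.910). Both overlapped between genotypes.

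Of the inducers of these ligands, 8 of 11 tested had higher means, against 50.3% of all genes, and 6 of 11 without CD109-/- replicate 1. Their median was 0.38, and leaving out 1 array gave 0.45 to 0.72. Il6 read -2.81 and -2.10 in CD109-/- tumours, against -4.53 and -4.02 in CD109+/+ tumours, a difference of 1.82 ± 0.35 (SE, limma adjusted p = 0.507), and by 2.68 on its second probe. Tlr2, a receptor for bacterial lipoproteins, differed by 1.20 ± 0.31 and Il17ra by 0.80 ± 0.30 (SE, limma adjusted p = 0.543 and 0.669). Among NF-kB and C/EBP regulators, 13 of 15 means were higher, and 9 of 15 without CD109-/- replicate 1. Their median was 0.30, which ran from 0.12 without CD109-/- replicate 1 to 0.58 without CD109+/+ replicate 1. Nfkbiz, the nuclear inhibitor-of-kappaB protein that helps induce a subset of NF-kB targets, read -0.18 and -0.73 in CD109-/- tumours, against -1.97 and -2.08 in CD109+/+ tumours, a difference of 1.57 ± 0.28 (SE, limma adjusted p = 0.504). Its genotypes were apart by more than either replicate gap. Cebpb differed by 0.84 ± 0.22 and Cebpd by 0.60 ± 0.25 (SE, limma adjusted p = 0.544 and 0.700).

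Colony-stimulating factors and receptors other than Csf3 had 6 of 7 means higher, against 50.3% of all genes, with Csf3r the exception. Csf1, the macrophage growth factor, differed by 1.70 ± 0.55, and the shared beta chains Csf2rb and Csf2rb2 by 0.91 ± 0.26 and 0.81 ± 0.27 (SE, limma adjusted p = 0.600, 0.571 and 0.611). The other Csf2rb probes differed by 0.17 to 0.79. For calprotectin receptors 4 of 7 means were higher and the median was 0.11, and all 7 overlapped between genotypes. Emb differed by 0.78 ± 0.47, Cd14 by 0.61 ± 0.46 and Tlr4 by 0.33 ± 0.32 (SE, limma adjusted p = 0.763, 0.811 and 0.856). Genes of neutrophil adhesion and transmigration had 8 of 10 means higher, against 50.3% of all genes, and 6 of 10 without CD109-/- replicate 1. Their median was 0.42, which ran from 0.32 without CD109+/+ replicate 1 to 0.65 without CD109+/+ replicate 2. The integrin chains Itgal and Itgb2 differed by 0.80 ± 0.23 and 0.78 ± 0.23, and the selectin ligand Selplg by 0.74 ± 0.23 (SE, limma adjusted p = 0.582, 0.582 and 0.587). In this list, genotypes did not overlap in 5 genes that were higher (20.3% of all genes) and in 2 that were lower (18.3% of all genes). The 2 lower were the integrin chain Itgam and the endothelial adhesion molecule Vcam1, added after their values were seen. They differed by -0.50 ± 0.23 and -0.49 ± 0.30 (SE, limma adjusted p = 0.721 and 0.767). None of these lists held a gene past an adjusted p of 0.05, and they share arrays with the chemokines and calprotectin.

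The other S100 genes were split in direction. Of 13 tested, 6 had higher and 7 lower means in CD109-/- tumours, and the median was -0.057, which ran from -0.44 without CD109-/- replicate 1 to 0.41 without CD109-/- replicate 2. S100a4 differed by 0.85 ± 0.32, S100b by 1.04 ± 0.44 and S100a5 by -0.91 ± 0.58 (SE, limma adjusted p = 0.669, 0.700 and 0.771). The difference between the calprotectin pair and the other S100 genes was not tested.

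**Figure D4:**
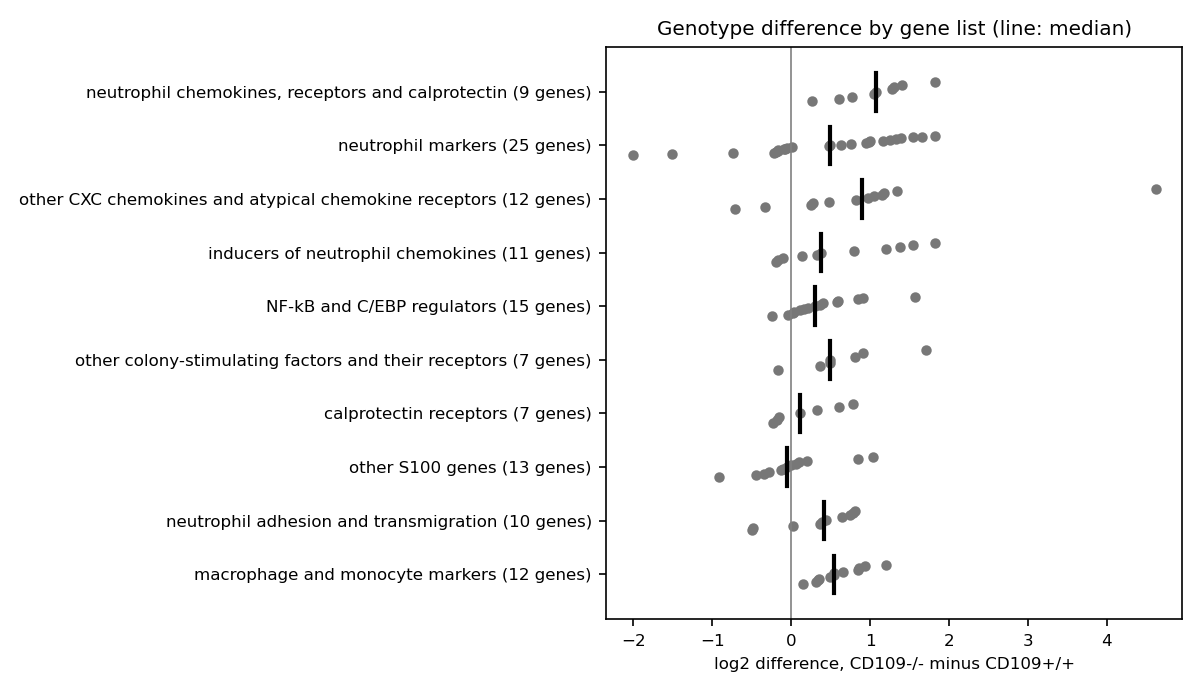
Log2 difference, CD109-/- minus CD109+/+, of every tested gene (points) and the median (line) for the set and the gene lists named in the text. The 9 tested genes of the set all lie above 0 around a median of 1.08, the neutrophil markers lie on both sides of 0, and the other S100 genes centre near 0.

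No marker of another cell type passed an adjusted p of 0.05 in limma. The means of all 12 macrophage and monocyte markers were higher in CD109-/- tumours, against 50.3% of all genes. Their median was 0.54, and 8 did not overlap (20.3% of all genes were higher by that rule). Mrc1 differed by 1.21 ± 0.22, Itgax by 0.86 ± 0.21 and Adgre1 by 0.94 ± 0.25 (SE, limma adjusted p = 0.504, 0.541 and 0.561), and the other Itgax probes differed by 0.44 to 0.93. The list's summed scaled signal was 103 and 93.1 on the CD109-/- arrays, against 93.2 and 62.4 on the CD109+/+ arrays. Means of all 6 fibroblast markers (median 1.03), all 4 tested erythroid markers (median 0.68) and 4 of 5 tested T cell markers (median 0.70) were higher too. With normexp background correction these medians were 0.81 for fibroblast, 0.70 for erythroid and 0.27 for T cell markers. Alveolar type 2 markers, with 4 higher and 5 lower and a median of -0.035, and club and airway secretory markers, with 4 higher and 4 lower and a median of 0.10, were split. The club and airway median ran from -0.72 without CD109+/+ replicate 1 to 0.73 without CD109+/+ replicate 2. Endothelial markers had 6 of 6 means higher (median 0.23, and -0.0015 without CD109-/- replicate 2), B cell markers 1 of 4 (median -0.099, and 0.17 without CD109+/+ replicate 2) and eosinophil and mast cell markers 1 of 2 tested. The part of these cell types in the differences of the set was not tested.

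Likeness of pattern was measured as the root mean square distance between centred log2 profiles over the 4 arrays, across 14957 named genes. S100a8 and S100a9 were 0.180 apart, and 5 genes were nearer to S100a8 than S100a9 was. Nearest to the mean of the calprotectin pair were Cyp26b1 (0.116), Ccl9 (0.136), Tmem178b (0.143), Lrp8 (0.183) and Aldh1a1 (0.183). Cxcl1 and Cxcl2 were 0.603 apart, with 1472 genes nearer to Cxcl1 than Cxcl2 was, so their mean follows neither gene closely. Nearest to the mean of Cxcl1 and Cxcl2 were Spic (0.084), Rgs2 (0.101), Stac (0.143), Nudt17 (0.147) and Cacybp (0.152). Tmem178b was too dim on CD109+/+ replicate 2, at -6.76, and Spic on CD109+/+ replicate 1, at -5.97. Both genes passed the filter only through their CD109-/- arrays, so their distances rest in part on values not well above background. Within the set, Cxcl1 lay nearest to Cxcr1 at 0.362, with 182 genes nearer, and Cxcl2 to Cxcr2 at 0.451, with 162 nearer. The 5 genes nearest to Cxcl15, namely Slu7, Slc2a8, Prkd2, Rere and Arhgef4, lay within 0.018. With 4 arrays such distances describe these libraries only.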

How the data were processed

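Cy3-labelled cRNA from 100 ng of total RNA per sample was hybridised to 1-colour Agilent arrays, and per the file headers the deposited intensities are Feature Extraction 12.1.0.3 processed signals (background-subtracted), on 1 slide scanned in 1 session. The deposited value table on a log2 scale, made by the authors from the same arrays, served as an alternative. Control spots and outlier marks were left out, spots of a probe averaged, and log2 signals taken relative to each array's 75th percentile. Probes were kept when both arrays of either genotype rose well above background, and tested with limma 3.58.1 in R 4.3.3 (lmFit and eBayes, two-sided, Benjamini-Hochberg over all 35769 probes), and by gene on the brightest tested probe (16443 genes). Values of the 10 genes come from the fit by probe and those of the lists from the fit by gene. The script was tested on simulated data. An exact permutation of 2 against 2 arrays cannot go below p = 0.333. A probe dim on both arrays of a genotype gives a bound: the bright genotype's mean against, per array, the higher of the lowest well-above-background signal and the dim probe's own.

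Probes were named through their transcript accessions in RefSeq's table on GRCm38.p6, and 34558 of 56594 probes on every array gained a symbol. The array design was made on mm9, and no coordinate was taken from it. The 10 genes and all lists were chosen with earlier results of these data known. Named are the 10 genes, Cd109, all tested neutrophil markers, the 3 genes of lowest unadjusted p in each list whose genes are named (others are marked where they appear), and the 5 genes nearest in pattern to each anchor. Protein features were not analysed here.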

Additional observations from a re-analysis of the deposited data

How the results depend on the processing

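The median difference of the 9 genes was 1.08. It was 1.07 with normexp background correction and 1.10 with quantile normalization. Median scaling and the authors' value table move every gene by the same amount, and gave 1.12 and 1.09. No filter, a stricter filter, a mean-variance trend and the replicate block cannot change these differences, so their median of 1.08 is no separate check. The median was 0.76 with sex as a covariate, and leaving out 1 array gave 0.60 to 1.60. Cxcl3 turned to -0.85 both with sex as a covariate and without CD109-/- replicate 1, which are the same contrast of females; its leave-one-out range was -0.85 to 2.05, and no other tested gene of the set changed sign. Probes past an adjusted p of 0.05 numbered 0 under every alternative run, except 2 without CD109-/- replicate 2, for a leave-one-out range of 0 to 2, neither from the set. The lowest adjusted p of the set under any alternative was 0.0863, for Cxcr2 without CD109-/- replicate 2. Genes of the set higher at a limma unadjusted p under 0.05 numbered 3, against 1385 of 35769 probes. The number was 4 with quantile normalization (1522 probes) and with median scaling (1546 probes). With normexp it was 2 (1196 probes), with Cxcr2 at a limma p of 0.0540. It was also 2 with no filter (1796 of 56594 probes) and by gene (822 of 16443 genes). There S100a9 had a limma unadjusted p of 0.0532 and 0.0551. Over all genes that count of calls in both directions was 1219, but 553 without CD109+/+ replicate 1, 1929 without CD109-/- replicate 2 and 1898 with the replicate block. Same-numbered arrays deviated together (correlation 0.35 over 35769 probes), which over 2 pairs does not establish pairing. The replicate block gave 0 adjusted calls. Under it, 6 genes of the set were higher at a limma unadjusted p under 0.05, against 2088 of 35769 probes. The slide could not be used as a block, since there was 1 slide. The counts over the set, with all arrays and without one, were chosen after seeing the data. Signal over background limits Csf3, which was measured on 2 of 4 arrays. It also limits Cxcl2, which was close to background on every array but CD109-/- replicate 1.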

Other observations

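Most of the other S100 genes on the arrays separated by replicate number and not by genotype, with both replicate 1 arrays the higher. S100g, also named after its values were seen, went the other way. It read 3.75 and 5.15 in CD109-/- tumours, against 4.27 and 4.63 in CD109+/+ tumours. The share of all genes that separate by replicate number was not counted, and same-numbered arrays deviated together over all 35769 probes (correlation 0.35). S100a6, named here after its values were seen, read 8.10 and 6.10 in CD109-/- tumours, against 8.01 and 6.44 in CD109+/+ tumours, and S100a11 read 5.13 and 4.12 in CD109-/- tumours, against 5.03 and 4.09 in CD109+/+ tumours. Over the 13 genes tested the median of centred values was 0.54 and -0.44 on the CD109-/- arrays, against 0.42 and -0.30 on the CD109+/+ arrays. Replicate 1 was thus the higher array in each genotype.

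The kappaB word shared by Cxcl1, Cxcl2 and Cxcl3 was also looked up in other promoters after the data were seen. Of 13 other tested genes with the word, 8 had a higher mean in CD109-/- tumours, 0 differed by 1 or more upward, and the median was 0.11. Gbp5 differed by 0.62 and Nfkbia, which encodes the inhibitor of NF-kB, by 0.36. Over 691 other genes with the kappaB consensus 53.1% were higher with a median of 0.026, beside 50.4% and 0.0032 for 12991 genes with a promoter in the table.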
